A study of Mus musculus with 4 samples.

Results

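The 10 genes followed here belong to the machinery by which natural killer (NK) cells release their lytic granules and were looked up in a transcriptome-wide map of N6-methyladenosine (m6A). The members were chosen by name, as Unc13d, Rab27a, Stx11, Stxbp2, Lyst, Vamp7, Vamp8, Lamp1, Lamp2 and Snap23, and a peak was taken as theirs when the gene identifier in the peak list was that of the gene. They held 16 of 20727 distinct peaks, spread over 9 of 12351 genes with a peak. Splenic NK cells of wild-type C57BL/6 mice gave 4 libraries in 2 groups, 2 of RNA fragments pulled down with an m6A-specific antibody and 2 of input RNA without antibody. According to the methods of the study, NK cells in all these mice had been expanded with a plasmid that expresses IL-15, so both groups share that treatment and differ only in the antibody step. The mice were 6 to 10 weeks old, an age that the methods give for all animals and not for these libraries separately.

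Lytic granules are lysosome-related organelles that hold perforin and granzymes. After an NK cell meets a target, granules are carried to the contact site, docked by the small GTPase Rab27a, primed by Munc13-4 (the product of Unc13d) and fused with the plasma membrane by SNARE proteins, among them syntaxin-11, which is held by the Munc18-2 protein encoded by Stxbp2. Inherited loss of UNC13D, STX11 or STXBP2 in humans causes familial hemophagocytic lymphohistiocytosis, and loss of RAB27A or LYST causes Griscelli or Chediak-Higashi syndrome. m6A is written on nascent mRNA at sites of the form DRACH (any base but C, then a purine, then AC, then any base but G) and is known for its abundance around stop codons and in 3′ UTRs.

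Each peak had 1 fold enrichment, a ratio of immunoprecipitate to input reads made by the authors, and 1 log10 p-value from peak calling, with 1 value for the series. The list named no sample, so there is no value per replicate, no error and no test of a difference in what follows, and the depth of the libraries is unknown. Peaks enriched at least 5-fold, the limit the study used to select genes for pathway analysis, are called strong. As a check of the labelled cell type, 9 of 9 NK cell markers had a peak, with fold enrichments from 1.12 to 2.53. A peak was also found for 3 of 6 T cell, 3 of 5 B cell, 5 of 5 monocyte and macrophage and 2 of 3 red cell markers. The peaks of T cell markers were enriched from 1.39-fold to 31.6-fold, with a strong peak in each of Cd3d, Cd3e and Cd3g and no peak in Cd4, Cd8a and Cd8b1. Those of B cell markers were enriched from 2.69-fold to 75.9-fold, with a strong peak in 2 of the 3 genes (Cd79a and Pax5). Monocyte and macrophage markers (1.12-fold to 3.56-fold) and red cell markers (1.44-fold to 2.69-fold) had no strong peak. In sorted cells measured in bulk, fewer cells of a type and less RNA per cell cannot be told apart, and the part of such cells in the members' peaks was not tested.

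m6A peaks were found in 9 of the 10 members, against 46.3% of 21951 annotated protein-coding genes. That share is over all annotated genes, whether or not their RNA was present, and a peak needs transcript reads. In the 2 other lists of granule genes described further on, 84.6% and 86.7% of genes had a peak. The other was Vamp7 (ENSMUSG00000051412), a SNARE of late endosomes and lysosomes. GENCODE places it on a scaffold outside the assembled chromosomes of GRCm38, and the list names 22 chromosomes and no scaffold. Its 0 peaks therefore cannot be read as a lack of methylation. A single peak was seen in 4 members (Rab27a, Stxbp2, Lyst and Lamp1), while 3 had 2 peaks (Unc13d, Stx11 and Vamp8) and 2 had 3 peaks (Lamp2 and Snap23). Peaks of the same gene share its RNA and are not replicates. Of all genes with a peak, 59.8% had 1 and 16.6% had at least 3.

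The sequences printed here are candidate m6A sites from the peaks that the results turn on, shown to let the reader see the stop codons and the GGAC cores described further on. They were read from GENCODE M21 transcripts (GRCm38), on the strand of the gene, 5′ to 3′, with the DRACH match in capitals, and T stands for U.
Unc13d, stop codon, chr11:116062684-116062704, minus strand: atgccccgTGACAgggcggtg
Stxbp2, stop codon, chr8:3642721-3642741, plus strand: ccctgcccTGACAcagcccct
Lyst, exon 14, chr13:13651578-13651598, plus strand: gtgtgcatGGACTcaaatgat
Lyst, exon 15, chr13:13656958-13656978, plus strand: ggaaaatgGGACCtggggaac
Stx11, 5′ UTR, chr10:12964162-12964182, minus strand: agccgcggGGACAcgccgcgg
Stx11, 5′ UTR, chr10:12964221-12964241, minus strand: cagggctcGGACCccggctga
Lamp1, 3′ UTR, chr8:13175007-13175027, plus strand: caacctctGGACActtggctt
Vamp8, 5′ UTR of Vamp8-202 and coding exon 2 of Vamp8-201, chr6:72388382-72388402, minus strand: gccggaaaTGACCgagttagg
In the first 2 of these the capitals begin with the UGA stop codon itself, so that the A of the motif is the last base of the stop codon.

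Granule exocytosis transcripts mostly carried shallow but well supported peaks. Of the 16 peaks, 13 were enriched between 1.36-fold and 2.90-fold, with a median of 1.63, against 1.90 for all peaks under 5. At least 2-fold enrichment was seen in 5 of the 16, against 63.9% of all peaks, and at least 5-fold in 3 of the 16, against 34.6%. Over all 16 peaks the median was 1.71, against 2.66 for all peaks and 2.37 for peaks of protein-coding genes. A p-value under 0.001 was reached by 14 of the 16 peaks, and by 61.5% of all peaks. The median log10 p was -8.79, against -4.10 in the whole list. Fold enrichment alone did not set significance, since the 7 peaks with a fold enrichment from 1.51 to 1.73 had log10 p-values from -2.57 in Snap23 to -44.3 in Lamp1.

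**Figure D1:**
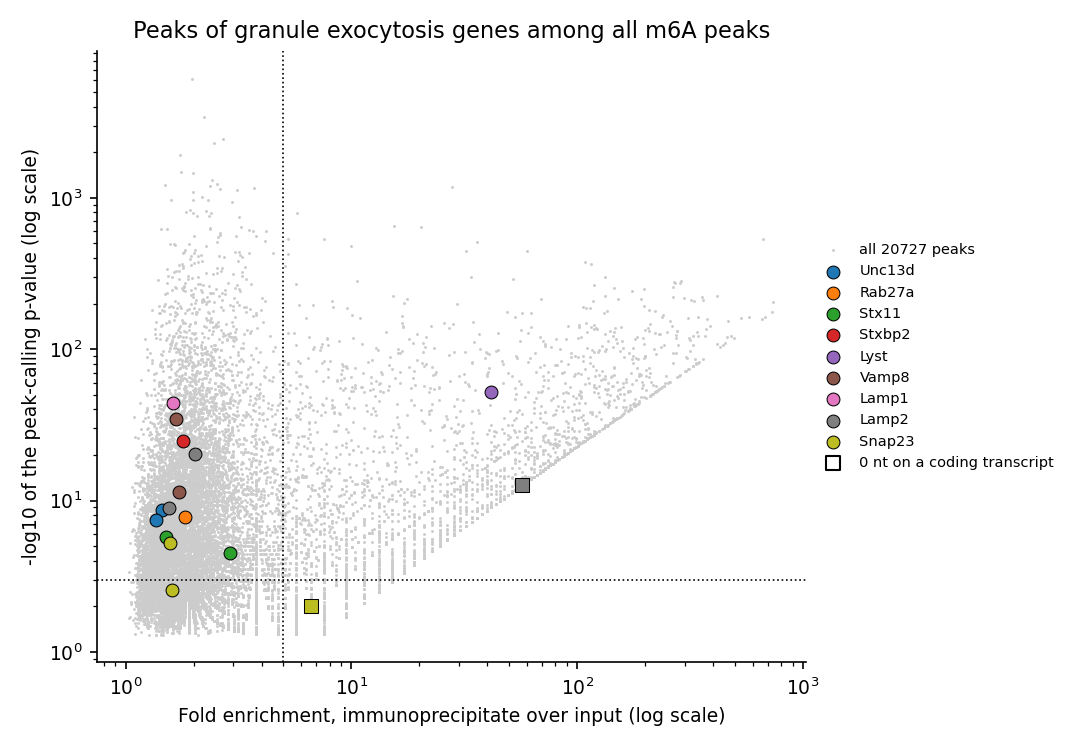
Fold enrichment of immunoprecipitate over input (x axis, log scale) against -log10 of the peak-calling p-value (y axis, log scale) for all 20727 peaks in grey and the 16 peaks of the granule exocytosis genes in colour. Dotted lines mark a fold enrichment of 5 and a p-value of 0.001, and squares mark the 2 peaks, in Lamp2 and Snap23, that touch no coding transcript. The 13 coloured peaks left of 5 lie between 1.36 and 2.90, and Lyst and Lamp2 lie far to the right.

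The docking and priming factors carried their peaks in the last exon. Unc13d (ENSMUSG00000057948, chromosome 11, minus strand) had 2 peaks in its last exon. The first (116062545 to 116062725, 181 nt) was enriched 1.45-fold (log10 p of -8.64), and ran from -31 to 149 nt relative to the last base of the stop codon. It held 6 DRACH sites, the stop codon site printed above among them. The second (116062245 to 116062305, 61 nt) was centred 419 nt past the stop codon and had the lowest enrichment of the 16, 1.36-fold (log10 p of -7.48). Rab27a (ENSMUSG00000032202, chromosome 9, plus strand) had 1 peak (73097331 to 73097629, 299 nt) enriched 1.83-fold (log10 p of -7.81). That peak lay at the other extreme of a 3′ UTR, 2024 nt past the stop codon, and reached the last annotated base of the 3168-nt transcript. It was rich in A and U, with a GC content of 34.1%, and its 6 DRACH sites included 0 with a GGAC core.

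The syntaxin and its Munc18 partner had their peaks in different places. Stx11 (ENSMUSG00000039232, chromosome 10, minus strand) had a peak at each end of its mRNA. Its 5′ peak (12964059 to 12964268) covered nt 1 to 204 of the 403-nt 5′ UTR, enriched 2.90-fold (log10 p of -4.48). This was the highest fold enrichment of the 13 weaker peaks. It was also the most GC-rich of the 16 at 69.6%, and it held 4 GGAC sites, not all of them part of a DRACH match. The 3′ peak of Stx11 (12940089 to 12940209, 121 nt) was centred 966 nt past the stop codon, enriched 1.51-fold (log10 p of -5.73), and held 0 GGAC sites. Stxbp2 (ENSMUSG00000004626, chromosome 8, plus strand) had 1 peak (3641947 to 3642836) enriched 1.79-fold (log10 p of -24.9). Its 300 exonic nt began in exon 18, ended 105 nt past the stop codon in the last exon, 19, and were centred at -45 nt relative to its last base. The deposited label was 3′ UTR, although the centre lay in the coding sequence.

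The UGA stop codons of Unc13d and Stxbp2 were each followed by CA, which makes a DRACH match across the end of the coding sequence. Of the 9614 transcripts on which a peak could be placed, 50.9% ended in UGA and 10.7% had a stop codon of this kind (UGAC followed by A, C or U). The stop codon was covered by 3189 of all placed peaks (20.3%), and a stop codon of this kind by 338 (2.15%). For member peaks that cover a stop codon, the matching base is these 338 of 3189. Of the 13 member peaks placed on the longest coding transcript, 2 covered the stop codon and both were of this kind. The match is a description of sequence, and the list does not resolve which base carried the mark.

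Lyst carried the member peak with the most support at a high fold enrichment. Lyst (ENSMUSG00000019726, chromosome 13, plus strand) encodes a very large BEACH-domain protein that controls the size of lysosome-related organelles and is mutated in beige mice. Its only peak (13650452 to 13658605) had a fold enrichment of 41.4, above 93.8% of all peaks, and a log10 p of -51.9. A fold enrichment and significance both at least as high were found in 1.46% of all peaks. Among the 301 peaks with a fold enrichment within 1.1 times that of Lyst, 95.7% were less significant. Of the strong peaks, 6.67% were at least as significant.

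The Lyst peak lay deep inside the coding sequence. It took in 17 nt at the end of exon 13, all 174 nt of exon 14, all 161 nt of exon 15 and the first 9 nt of exon 16 of 53 exons, 361 nt in all, corresponding to codons 1551 to 1671. Its centre was at -6533 nt relative to the last base of the stop codon, and 2.74% of the 13181-nt transcript was covered. It held 9 DRACH sites, 2 of them with a GGAC core (GGACT in exon 14 and GGACC in exon 15, printed above). The stop codon and the 1624-nt 3′ UTR of Lyst held 0 peaks. Of the 4157 strong peaks that could be placed, 43.8% were centred in coding sequence.

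**Figure D2:**
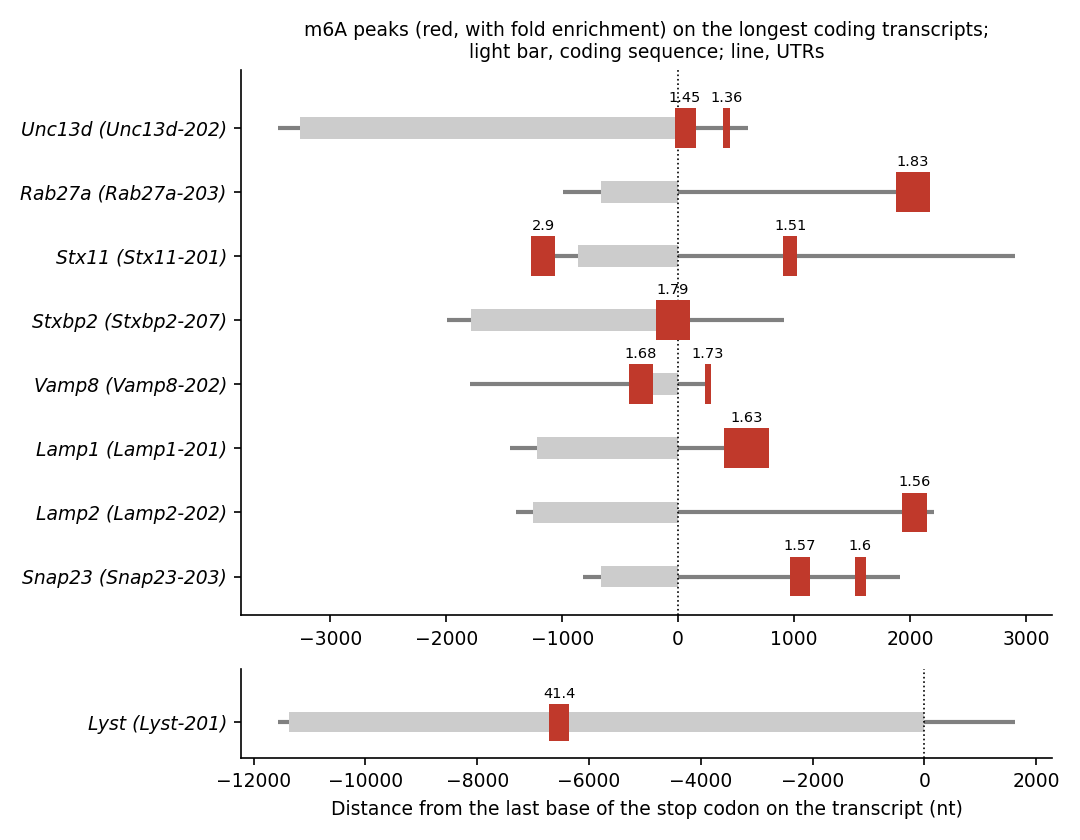
Member peaks (red, with the fold enrichment above each) on the longest coding transcript of 8 genes and, below on its own scale, of Lyst. The x axis is the distance in nt from the last base of the stop codon, the light bar is coding sequence and the line is UTR. Red boxes touch the dotted stop codon line in Unc13d and Stxbp2, lie in distal 3′ UTR in Rab27a, Lamp2 and Snap23, and lie at -6533 nt in Lyst.

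The vesicle and plasma membrane SNAREs each had 3′ UTR enrichment under 5-fold and a peak whose place depended on the transcript. Vamp8 (ENSMUSG00000050732, chromosome 6, minus strand), a vesicle SNARE, had 2 peaks. The first (72388334 to 72388542, 209 nt) was enriched 1.68-fold (log10 p of -34.8) and was labelled 5′ UTR. It lay mostly in the 1566-nt 5′ UTR of the longest coding transcript, Vamp8-202. On Vamp8-201, the transcript marked as principal in the annotation, it covered 87 nt of coding sequence from the first base of exon 2, directly after the start codon, and the other 122 nt lay outside its exons. The list cannot tell which transcript gave the reads. The second Vamp8 peak (72385223 to 72385282, 60 nt) covered the last bases of both transcripts, enriched 1.73-fold (log10 p of -11.4).

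Snap23 (ENSMUSG00000027287, chromosome 2, plus strand), a plasma membrane SNARE, had 3 peaks, and 2 of them lay in its 3′ UTR. They were centred 1049 nt (120600301 to 120600480) and 1571 nt (120600868 to 120600957) past the stop codon, enriched 1.57-fold and 1.60-fold with log10 p-values of -5.23 and -2.57. The more distal of the pair was soft-masked as repetitive sequence over 100% of its bases in the genome file, whereas 5.04% of placed peaks were masked over at least 50%. No masked base was seen in 4 of the 13 placed member peaks (the distal peak of Unc13d, the 5′ peak of Stx11 and both of Vamp8), against 40.0% of placed peaks. The third Snap23 peak (120584562 to 120584681, 120 nt) was enriched 6.64-fold and had the weakest log10 p of the 16, -2.0. Of the 314 peaks within 1.1 times this fold enrichment, 0.0% were less significant, against 18.0% of all peaks. It sat 196 nt into the second intron of the coding transcript Snap23-203 and overlapped an exon only in a retained-intron transcript, and 75.8% of its bases were masked.

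Lamp1 and Lamp2, the lysosomal membrane glycoproteins that appear on the cell surface as CD107a and CD107b when granules fuse, had 4 peaks between them. Lamp1 (ENSMUSG00000031447, chromosome 8, plus strand) had 1 peak (13174952 to 13175338) that filled the last 387 nt of its 780-nt 3′ UTR, enriched 1.63-fold (log10 p of -44.3). It held 2 DRACH sites, 5.17 per kb, the lowest density of the 16 peaks, and 1 of them was GGACA. Exons of Grtp1, on the opposite strand, shared 177 nt with this peak, and whether the libraries kept strand is not given in the sources used here.

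Lamp2 (ENSMUSG00000016534, chromosome X, minus strand) has 3 coding transcripts that end in alternative last exons, and its peaks touched each of them. A peak (38419569 to 38419779, 211 nt) lay 2038 nt past the stop codon in the last exon of Lamp2-202, near the end of its 2205-nt 3′ UTR, enriched 1.56-fold (log10 p of -8.93). Another (38402255 to 38405424) was enriched 2.03-fold (log10 p of -20.3). It covered 363 nt of the 370-nt 3′ UTR of Lamp2-201, from 8 nt past the stop codon to the end of the transcript, and the first 27 nt of the last exon of Lamp2-203, which are coding. One value was given for both exons, so their shares cannot be told apart. It held 12 DRACH sites in Lamp2-201, the most of any member peak, with 0 GGAC cores.

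The third Lamp2 peak had the highest fold enrichment among the members and touched no coding transcript. It (38454813 to 38455352, 540 nt) was enriched 56.9-fold (log10 p of -12.6). It began 896 nt into the first intron, which is 14108 nt long, and was labelled an exon through Lamp2-205, a processed transcript. Of the 186 peaks with a fold enrichment within 1.1 times this one, 30.6% were less significant.

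**Figure D3:**
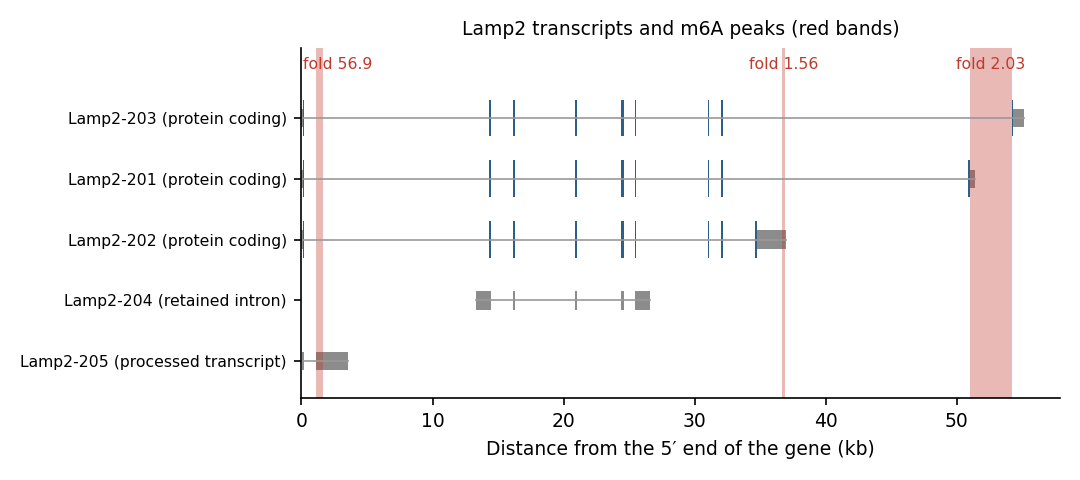
The 5 annotated Lamp2 transcripts drawn over the distance in kb from the 5′ end of the gene, with coding parts in blue, other exons in grey and introns as lines. Red bands are the 3 peaks, with fold enrichments of 56.9 in the first intron of the coding transcripts, 1.56 in the last exon of Lamp2-202 and 2.03 across the last exons of Lamp2-201 and Lamp2-203.

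Among the 9 members with a peak, 3 thus had a strong one (Lyst, Lamp2 and Snap23), a share of 33.3%, against 49.6% of all genes with a peak and 43.4% of protein-coding ones. With a peak-calling p-value under 0.001 also required, 2 of the 9 remained (Lyst and Lamp2). The share of all genes that meet both limits was not computed, so whether this count is low or high is not known. Restricted to peaks that touch a coding transcript, 1 of the 9 (Lyst) remained, against 37.3%. Peaks that touch no coding transcript were 2 of the members' 16, against 9.85% for protein-coding genes. Both were strong, and such peaks made up 17.7% of the 5385 strong peaks of protein-coding genes. With 9 genes these counts are a description only.

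A peak was placed when it overlapped the longest coding transcript, which left out 2 peaks of Lamp2 and 1 of Snap23. By region, 9 of the 13 placed peaks were centred in the 3′ UTR, against 56.5% of placed peaks in the list. Of the others, 2 were centred in coding sequence (Stxbp2 and Lyst), against 33.6%, and 2 in the 5′ UTR (Stx11 and Vamp8), against 9.94%. Centres within 200 nt of the stop codon were found for 2 of 13, in Unc13d and Stxbp2, against 22.3%. Along the 3′ UTR the centres ranged from 59 nt past the stop codon in Unc13d to 2038 nt in Lamp2. The last base of the longest coding transcript was reached by 3 of 13 peaks (Rab27a, Vamp8 and Lamp1), against 22.3%. The placed peaks held a median of 204 exonic nt, against 203 for all placed peaks.

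DRACH sites were present in each of the 16 peaks, and in 90.0% of placed peaks in the list. The density in the 13 placed member peaks was 18.8 per kb, against 20.3 per kb in the rest of the same transcripts and 20.2 per kb in all placed peaks. GGAC, counted whether or not it was part of a DRACH match, was found in 4 of the 13, against 54.5% of placed peaks. Its density was 3.01 per kb, against 3.44 per kb in the rest of the transcripts and 4.03 per kb in all placed peaks. Those 4 peaks were the 5′ peak of Stx11, the distal peak of Unc13d, and the peaks of Lyst and Lamp1. In the distal peak of Unc13d the GGAC was not part of a DRACH match. The commonest DRACH form in the placed member peaks was AAACA, with 7 of 50 sites, and GGACT occurred 1 time, in Lyst.

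Other genes of granule release were set beside the members from lists of known function. Of 26 genes of SNARE fusion and docking, 22 had a peak (84.6%). A strong one was found in 11 of these 22, against 43.4% of protein-coding genes with a peak. For 9 of the 22 it was on a coding transcript, against 37.3%. In some of the 11 genes, Rab37 among them (log10 p of -2.5), the peak of highest fold enrichment did not reach a p-value under 0.001. Among the highest fold enrichments were 34.1 at Syt7, a calcium sensor of lysosome exocytosis, 29.4 at Stx4a, a plasma membrane syntaxin, 18.0 at Syt11 and 13.3 at Rab37. The Syt7 peak (chromosome 19, 10389090 to 10453181) covered 6624 nt of a coding transcript, so its value is for a broad region. The Stx4a peak (chromosome 7, 127824294 to 127842029) covered 266 nt of one, and that of Syt11 449 nt. The most significant peaks were those of Syt11 (log10 p of -76.3), Stx4a (-46.6) and Sytl2 (-24.0), the last a Rab27 effector with a fold enrichment of 2.01. Sytl1, Rab3d, Vamp3 and Nsf had no peak.

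Of 30 genes that build lysosome-related organelles and move them, 26 had a peak (86.7%). A strong one was found in 6 of these 26 (23.1%), against 43.4% of protein-coding genes with a peak. Rab7, the GTPase of late endosomes, stood above the others enriched 118-fold (log10 p of -145), in a peak that touched 0 nt of a coding transcript. The next were 9.48 at Hps1, 9.45 at Vps11, a core subunit of lysosomal tethering complexes, 7.59 at Vps33a, and 5.69 at both Bloc1s6 and Cd63. The peaks of Hps1 (log10 p of -1.69), Vps33a (-2.13), Bloc1s6 (-2.27) and Cd63 (-2.22) did not reach a p-value under 0.001. Vps11 (log10 p of -77.7) and Hps3 (-12.7) followed Rab7 in significance. Hps5, Bloc1s1, Bloc1s4 and Vps18 had no peak.

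The median fold enrichment of peaks was 2.09 in the SNARE and docking list and 1.97 in the organelle list, beside 1.71 in the members. The share of placed peaks centred in the 3′ UTR was 66.7% and 52.9%, beside 69.2%. These differences between lists were not tested.

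**Figure D4:**
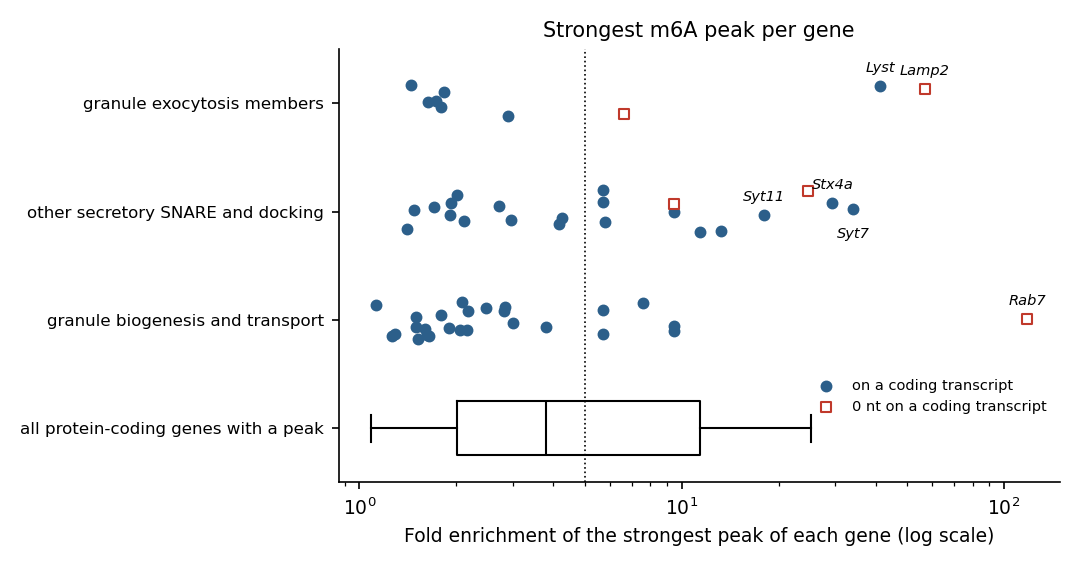
Fold enrichment of the strongest peak of each gene (x axis, log scale) for the 9 members with a peak, 22 other SNARE and docking genes and 26 genes of granule biogenesis and transport, with all 10174 protein-coding genes with a peak as a box (median 3.79, quartiles 2.01 and 11.4, whiskers to 1.5 times the interquartile range). Open squares are peaks that touch no coding transcript, and the dotted line marks 5. Of the 9 members, 6 lie below 5, and Lamp2 and Lyst lie above the upper quartile.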

How the data were processed

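The members and gene lists were chosen with earlier results of these data known. According to the study's methods, the authors cleaned reads with Trimmomatic and Cutadapt, mapped them by HISAT2 (GRCm38 in the submitters' processing notes), called peaks with exomePeak and annotated them with ChIPseeker. The deposited fold enrichment is a ratio of immunoprecipitate to input reads, and the deposited significance is a score, the log10 of an unadjusted p-value with -1.30 as its weakest value. How replicates were combined is not given in the sources used here. The list has 0 columns per sample.

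Of 20751 rows, 24 repeats were dropped. Gene models were GENCODE M21 (GRCm38). A peak was placed by the centre of its exonic part on its gene's longest coding transcript, which was possible for 15721 peaks (75.8%). DRACH and GGAC were searched on the gene's strand in transcript sequence. All 67 printed or listed sites within 1 exon equalled the genome sequence. Repeat shares are lower-case bases of the RefSeq genome file. Placement and motif code was tested on simulated transcripts. Python 3.11.15, pandas 2.3.3 and samtools 1.23.1 were used. No test was run, since there is no replicate value. Named genes are the members and, of each other list, the 5 highest in fold enrichment (with ties), the 3 most significant and those without a peak. Of these, 1 gene is not reported here.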

Additional observations from a re-analysis of the deposited data

How the results depend on the processing

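Of 30 alternative values for 8 results, 22 stayed within 1.5 times the value reported and 8 moved further. A fold enrichment of at least 2 left 5 peaks in 4 members and one of at least 5 left 3 peaks in 3 members. These limits left 63.9% and 34.6% of all peaks. Only 1 member kept a strong peak when peaks off coding transcripts were left out, an alternative chosen after seeing the data, as was the principal transcript. A window of 400 nt put 4 peaks near the stop codon. The share of all placed peaks in that wider window was not computed, so the rise is not a result about the members. With GGAC in place of DRACH, 5 of the 16 peaks held a site, against 54.5% of placed peaks in the list. The density was 3.01 per kb in the placed member peaks. No paired analysis was possible because peak values are pooled over the libraries (replicate numbers 1 and 2 occur in each group), and leaving out each replicate was not run for the same reason. Library depth is not in the data, and its limit on peak detection could not be computed.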

Other observations

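Fold enrichments in the list fell on steps. Between 5 and 30, 78.4% of 5411 values were whole multiples of 1.897 within rounding to the digits given. The Lamp2 peak in the first intron is 30 such steps, the Snap23 intron peak 3.5 steps and the Lyst peak 21.8 steps. The reads behind each peak are not in the list, and their part in these values was not tested.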
